A study of Mus musculus with 3 samples.

Results

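The BCL2 family decides whether the outer membrane of the mitochondrion stays sealed. Pro-survival members such as MCL1, BCL-XL (Bcl2l1) and BCL-W (Bcl2l2) hold the pore-forming effectors BAK (Bak1) and BAX in check, BH3-only members such as BIM (Bcl2l11), BID and BAD neutralise the pro-survival members or switch on the effectors, and XIAP blocks the caspases that act once cytochrome c has left the mitochondrion. Mcl1 encodes a protein with a very short lifetime and is required in early embryonic cells. The 8 genes described here, Mcl1, Bcl2l1, Bcl2l2, Bcl2l11, Bak1, Bid, Bad and Xiap, were chosen by symbol. All 8 were found among the 32285 genes of the files.

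The counts came from 3 droplet single-cell RNA libraries of E14 mouse embryonic stem cells (129/Ola background), which had been cultured with serum and leukaemia inhibitory factor. The control cells received DMSO, the solvent, for 6 h, and the treated cells received 10 uM tubercidin, an adenosine analogue, for 3 h or for 6 h. With 1 library for each condition, the spread between cultures could not be estimated. No difference was tested, and the 95% intervals cover counting error only.

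The called cells numbered 2031 with DMSO, 2365 after 3 h and 2926 after 6 h of tubercidin, with medians of 48452, 11877 and 8004.5 UMIs per cell (tags that let each captured RNA molecule be counted once). Levels are given as CPM, a gene's UMIs in the called cells of a library scaled to the same total for every library. A CPM is a share of the library, so neither fewer molecules per cell nor a lower sequencing depth can be read from it. Each pair of libraries shared 1 cell barcode. All 10 stem cell markers were detected in each library, with summed levels of 3922.0 to 5336.7 CPM. The summed markers of other cell types stood at 6.19 to 9.76 CPM (primitive endoderm), 0.915 to 2.07 CPM (fibroblast), 9.13 to 13.6 CPM (trophoblast) and 0 to 0.891 CPM (2-cell stage). Lum was at 0 in the control and at 6 h, Col1a2 and Sox17 at 6 h, and Zscan4c and Zscan4f in every library. Tcstv3 and Usp17lc were at 0 in the control and at 3 h, and Zscan4d at 3 h. The part of such cells in the results was not tested.

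The starts of 3 genes are shown because the results turn on them: Mcl1 had the highest level, Bak1 the highest treated-to-control ratio and Xiap the lowest. Windows of 300 bases, from 250 bases before to 50 bases after a RefSeq start (GRCm38.p6), were found for all 8 genes. Capitals mark matches to 4 motifs, searched on both strands so that a match may be printed as its reverse complement. The GC box was searched as GGGCGG, which 35.7% of 32851 windows of that length held. The core bound by ETS factors was searched as CCGGAA, found in 14.9% of the windows. The TATA box was searched as TATAAA, found in 13.6%. The core of the cyclic AMP response element was searched as TGACG, found in 20.8%. The Mcl1 window, chr3:95658471-95658770 on the plus strand, held 2 ETS cores, 1 GC box, 1 TGACG and no TATAAA, and none of the marked motifs overlapped. The Bak1 window, chr17:27028578-27028877 on the minus strand, held none of the 4 motifs. Its RefSeq start lay 382 bases from the gene's start in GENCODE M21. The window lay wholly inside the gene as placed there, so the sequence at that other start is not shown. The Xiap window, chrX:42067586-42067885 on the plus strand, held 2 GC boxes. It was the nearest of the gene's 3 windows to its start in GENCODE M21, 8157 bases away. This window too lay wholly inside the gene as placed there, so the sequence at that other start is not shown. Matches are descriptions of the sequence and no statement on what binds there.
Mcl1: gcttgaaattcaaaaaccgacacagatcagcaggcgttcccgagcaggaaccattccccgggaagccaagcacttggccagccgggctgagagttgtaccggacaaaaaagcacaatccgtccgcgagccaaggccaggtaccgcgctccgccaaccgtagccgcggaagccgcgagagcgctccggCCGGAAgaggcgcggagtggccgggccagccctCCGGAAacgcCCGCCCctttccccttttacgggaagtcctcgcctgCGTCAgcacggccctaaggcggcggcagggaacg
Bak1: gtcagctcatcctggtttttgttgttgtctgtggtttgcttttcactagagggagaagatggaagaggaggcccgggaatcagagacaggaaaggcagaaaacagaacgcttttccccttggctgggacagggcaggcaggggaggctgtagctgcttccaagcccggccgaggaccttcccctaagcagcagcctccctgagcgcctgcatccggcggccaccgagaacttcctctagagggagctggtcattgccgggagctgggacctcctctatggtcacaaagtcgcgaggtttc
Xiap: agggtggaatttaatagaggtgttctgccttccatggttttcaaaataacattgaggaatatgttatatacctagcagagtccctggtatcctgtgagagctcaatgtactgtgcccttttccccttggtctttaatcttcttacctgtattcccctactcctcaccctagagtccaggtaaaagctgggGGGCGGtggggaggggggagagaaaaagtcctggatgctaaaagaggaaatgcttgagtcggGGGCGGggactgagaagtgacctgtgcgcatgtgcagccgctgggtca

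Among the pro-survival genes, Mcl1 (ENSMUSG00000038612, chr3:95658788-95663176 in GRCm38) stood at 201 CPM with DMSO (21070 UMIs, interval 198 to 204), 188 CPM at 3 h (5625 UMIs, 183 to 193) and 153 CPM at 6 h (3779 UMIs, 148 to 158). The control was highest and the 6 h library lowest, and the 3 counting intervals did not overlap. The log2 ratio of CPM + 1 was -0.09 at 3 h against the control (interval of the ratio without the added 1, -0.14 to -0.05), -0.39 at 6 h (-0.44 to -0.34) and -0.30 between 6 h and 3 h (-0.36 to -0.24). At 3 h the sign rested on the scaling, because median-of-ratios and TMM factors gave 0.15 and 0.10. Set against the median gene, which moves with the scaling as well, Mcl1 lay 0.18 above it at 3 h and 0.27 below it at 6 h. Of the 7884 genes whose mean reached 10 CPM, 65.7% had a lower ratio than Mcl1 at 3 h and 28.5% at 6 h.

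Bcl2l1 (ENSMUSG00000007659, chr2:152780668-152831728), the gene of BCL-XL, stood at 30.9 CPM with DMSO, 29.9 CPM at 3 h and 35.3 CPM at 6 h. Its log2 ratio was -0.04 at 3 h, with a counting interval that included 0 (-0.15 to 0.06), and 0.19 at 6 h (0.08 to 0.30). At 3 h it was 0.19 under median-of-ratios factors, so no direction is given for that time. Bcl2l2 (ENSMUSG00000089682, chr14:54883377-54888234), the gene of BCL-W, was barely detected, with 229, 50 and 30 UMIs or 2.18, 1.67 and 1.22 CPM with DMSO, at 3 h and at 6 h. Its log2 ratio of -0.52 at 6 h had a wide interval (-1.45 to -0.29), and it was left out of the genes whose mean reached 10 CPM. The locus of Bcl2l2 is overlapped on the same strand by Gm20521, for which no count was used here, so its few UMIs are uncertain.

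The effector Bak1 (ENSMUSG00000057789, chr17:27019810-27029009) had the highest ratio of the 8 genes at both times. It stood at 28.1 CPM with DMSO (27.1 to 29.2), 35.2 CPM at 3 h (33.1 to 37.3) and 40.4 CPM at 6 h (37.9 to 42.9), and the 3 intervals did not overlap. The log2 ratios were 0.31 at 3 h (0.22 to 0.42) and 0.50 at 6 h (0.41 to 0.62), and 89.5% and 90.5% of the 7884 genes had lower ratios. Both ratios were positive under every scaling except UMIs per cell, which gave -1.67 and -2.04. The whole of Bak1 is overlapped by Ggnbp1 on the other strand, at 10.3, 10.1 and 13.6 CPM with DMSO, at 3 h and at 6 h. The sources used here do not state whether the counting used strand, and unless it did the reads of these genes cannot be told apart.

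**Figure D1:**
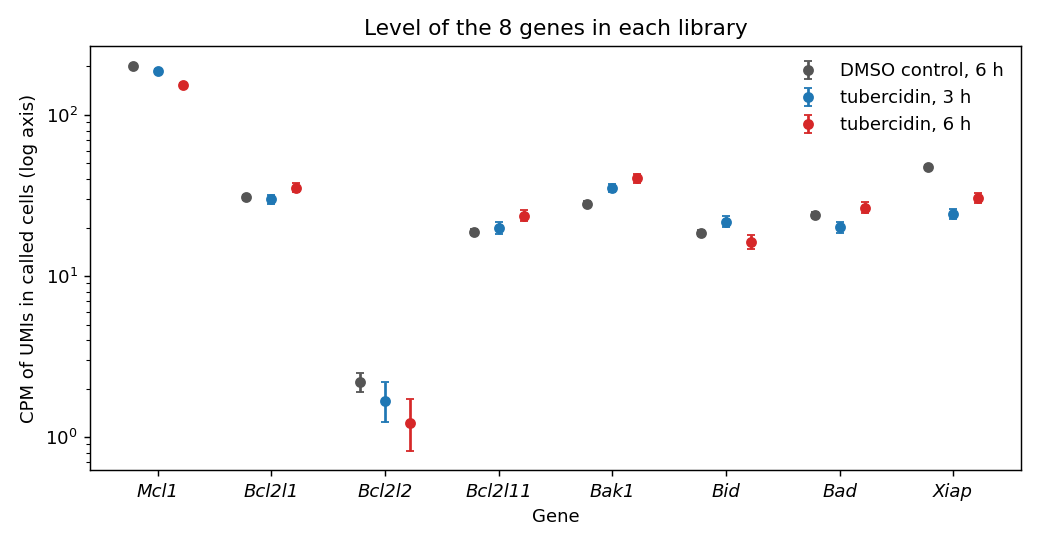
Level of each of the 8 genes (x axis) in CPM (y axis, log scale) in the 3 libraries, 1 point per library, with exact 95% Poisson intervals of the counts as bars. Mcl1 lies above all the others in every library, Bcl2l2 lies lowest, and the control point of Xiap, 47.6 CPM, stands above its treated points at 24.2 and 30.4 CPM.

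The BH3-only genes differed from each other. Bcl2l11 (ENSMUSG00000027381, chr2:128126038-128162547), whose product BIM binds every pro-survival member, stood at 18.7 CPM with DMSO, 19.8 CPM at 3 h and 23.7 CPM at 6 h. The treated libraries were the higher ones, but the 3 h ratio of 0.08 was within counting error (-0.05 to 0.22), while that at 6 h was 0.32 (0.20 to 0.47). Bid (ENSMUSG00000004446, chr6:120891930-120916853), which links death receptors to mitochondria, was highest at 3 h, at 18.5 CPM with DMSO, 21.7 CPM at 3 h and 16.3 CPM at 6 h. Bad (ENSMUSG00000024959, chr19:6941861-6951899), a BH3-only protein switched off by growth factor signalling, was lowest at 3 h, with 23.9, 20.01 and 26.5 CPM. The log2 ratios of Bid were 0.22 (0.10 to 0.36) and -0.18 (-0.34 to -0.03), and those of Bad were -0.24 (-0.39 to -0.13) and 0.14 (0.02 to 0.27), at 3 h and 6 h. Under median-of-ratios factors the 3 h ratio of Bad was -0.01. Between 6 h and 3 h Bid had a log2 ratio of -0.40 and Bad of 0.39, which lay 0.54 below and 0.25 above the median gene. The ends of Bid and Bad overlap Bcl2l13 (14.9 to 21.7 CPM) and Gpr137 (3.25 to 4.46 CPM) on the other strand.

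Xiap (ENSMUSG00000025860, chrX:42059679-42109656), the caspase inhibitor, had the lowest ratio of the 8 genes at both times. It stood at 47.6 CPM with DMSO (46.3 to 48.9), 24.2 CPM at 3 h (22.5 to 26.0) and 30.4 CPM at 6 h (28.3 to 32.6), so both treated libraries lay well below the control, with 3 h the lowest. The log2 ratios were -0.95 at 3 h (-1.09 to -0.86) and -0.63 at 6 h (-0.76 to -0.54), and 0.32 between 6 h and 3 h (0.18 to 0.48). At 3 h 6.70% of the 7884 genes had a lower ratio, and at 6 h 14.7%. Xiap was lower than in the control at both times under every scaling tried, with -0.71 the smallest size at 3 h.

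Of the 8 genes, 7 reached a mean of 10 CPM and 0 of those lay 2-fold or more from the control at 3 h, at 6 h or between the times. Among all 7884 genes the shares were 0.888% higher and 5.54% lower at 3 h, and 2.33% higher and 4.41% lower at 6 h, and 1.64% higher and 0.165% lower between 6 h and 3 h, so a count of 0 among 7 lies near this background. Median-of-ratios factors split the genes past 2-fold at 3 h into 139 higher and 166 lower, in place of 70 and 437, and those between 6 h and 3 h into 57 and 45 in place of 129 and 13. They moved the median of all genes by 0.23 at 3 h and by -0.22 between the times. Counting intervals wholly above 0 were found for 2 of the 7 genes at 3 h (Bak1 and Bid) and wholly below 0 for 3 (Mcl1, Bad and Xiap), against 21.5% and 65.5% of all genes. At 6 h they were 4 (Bcl2l1, Bcl2l11, Bak1 and Bad) and 3 (Mcl1, Bid and Xiap), against 31.7% and 51.9%. Between 6 h and 3 h they were 5 (Bcl2l1, Bcl2l11, Bak1, Bad and Xiap) and 2 (Mcl1 and Bid), against 51.2% and 19.7%, but under median-of-ratios factors Bak1 turned to -0.03 there, and Bcl2l1 and Bcl2l11 stood at 0.01 and 0.03. The median log2 ratio of the 7 genes was -0.04 at 3 h and 0.14 at 6 h, beside -0.27 and -0.12 for all 7884 genes. The comparisons at 3 h and 6 h share the control library.

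**Figure D2:**
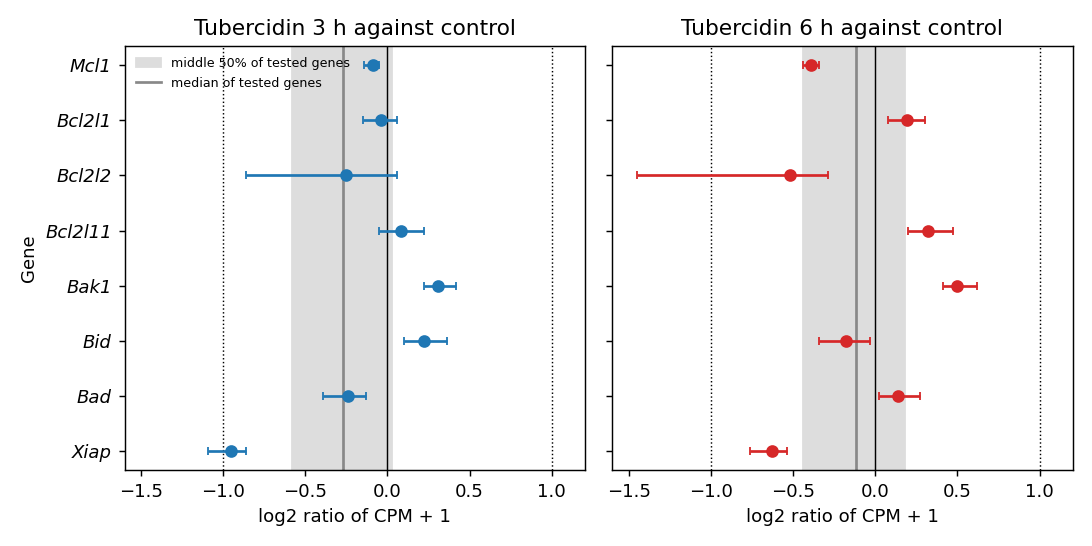
Log2 ratio of CPM + 1 (x axis) of each gene (y axis) at 3 h (left) and 6 h (right) against the control, with exact 95% counting intervals of the ratio without the added 1 as bars; the grey band holds the middle 50% of 7884 genes, the grey line is their median, and dotted lines mark 2-fold. Bak1 lies to the right of the band and Xiap to its left in both panels, and no point passes 2-fold.

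Shares of the UMIs within the family do not depend on how a library is scaled. Mcl1 supplied 85.9% of the UMIs of Mcl1, Bcl2l1 and Bcl2l2 with DMSO (exact binomial 95% limits 85.4 and 86.3%). The share was 85.6% after 3 h (limits 84.7 and 86.5%) and 80.7% after 6 h (limits 79.6 and 81.9%). The control and 3 h did not differ beyond counting error, and the 6 h share lay below both. These 3 pro-survival genes together held 72.4% of the UMIs of the 7 BCL2 family genes with DMSO (71.9 to 72.9%), 69.4% after 3 h (68.5 to 70.4%) and 64.0% after 6 h (62.9 to 65.1%), in intervals that did not overlap. The effector Bax is not among these 7 genes, and its 49139 control UMIs outnumber the 33904 of all 7. With Bax in the denominator, added after the values were seen, the pro-survival share was 29.55% with DMSO (29.2 to 29.9%), 27.8% after 3 h (27.2 to 28.4%) and 23.1% after 6 h (22.5 to 23.7%), in the same order. Within the 7 genes Bak1 went the other way, with 8.71% under DMSO, 11.1% after 3 h and 13.6% after 6 h. Bcl2l11 did so too, with 5.79%, 6.27% and 7.99%, but its control and 3 h limits overlapped (5.55 to 6.05% and 5.79 to 6.77%). Bid and Bad had no such order. Of the pro-survival genes, Mcl1 fell from 62.15% to 59.45% and 51.6%, but Bcl2l1 did not, at 9.56%, 9.46% and 11.9%. For each Bak1 UMI the control held 7.14 Mcl1 UMIs (6.87 to 7.42), the 3 h library 5.35 (5.01 to 5.72) and the 6 h library 3.79 (3.54 to 4.07). For each Bcl2l11 UMI there were 10.7, 9.49 and 6.46 Mcl1 UMIs, and for each Bcl2l1 UMI 6.50, 6.28 and 4.33. The control and 3 h intervals overlapped for Bcl2l11 (10.2 to 11.2 and 8.71 to 10.3) and for Bcl2l1 (6.26 to 6.75 and 5.86 to 6.75). For both genes the 6 h interval lay below these (5.92 to 7.06 and 4.02 to 4.67). The falling order of the values was not shared by the others. For each Bid UMI there were 10.8, 8.65 and 9.40 Mcl1 UMIs, for each Bad UMI 8.41, 9.41 and 5.78, and for each Xiap UMI 4.22, 7.78 and 5.04. For the few Bcl2l2 UMIs the values were 92.0, 112 and 126, with wide overlapping intervals (80.8 to 105, 85.2 to 152 and 88.1 to 187).

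**Figure D3:**
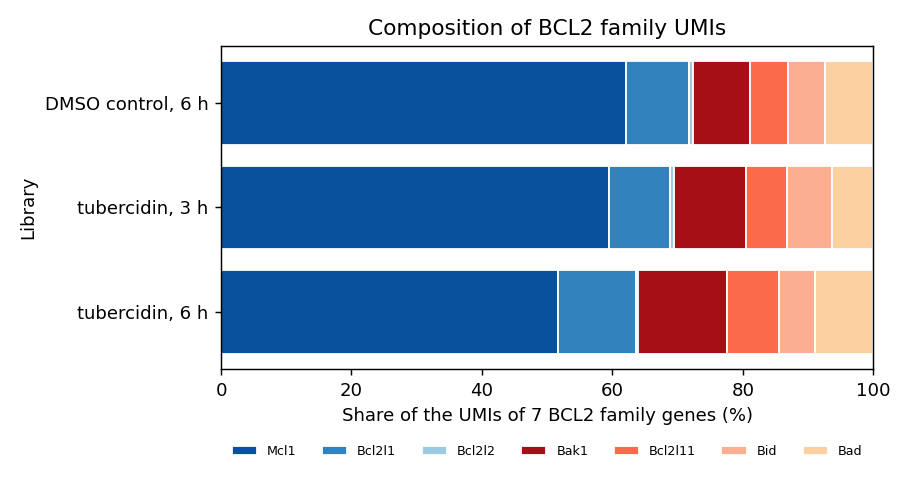
Share of each gene (x axis, percent) in the UMIs of the 7 BCL2 family genes in each library (y axis), with pro-survival genes in blue and effector and BH3-only genes in red and orange. The Mcl1 bar shortens from 62.1% in the control to 59.4% at 3 h and 51.6% at 6 h, and the Bak1 bar lengthens.

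The order of levels can be read only roughly, since a UMI marks the end of a molecule and is not scaled by length, while genes may differ in how well their ends are captured. In control cells the CPM ran from Mcl1 through Xiap, Bcl2l1, Bak1, Bad, Bcl2l11 and Bid to Bcl2l2, and the counting intervals of the neighbours Bcl2l11 (17.9 to 19.6 CPM) and Bid (17.7 to 19.4 CPM) overlapped. At 3 h the intervals of the neighbours Xiap, Bid, Bad and Bcl2l11 overlapped in turn, at 24.2, 21.7, 20.01 and 19.8 CPM. At 6 h those of Xiap, Bad and Bcl2l11 did, at 30.4, 26.5 and 23.7 CPM. Bak1 stood above Bcl2l1 in both treated libraries. At 3 h it was at 35.16 against 29.94 CPM, with intervals of 33.07 to 37.35 and 28.01 to 31.97 CPM. At 6 h it was at 40.4 against 35.3 CPM, with intervals of 37.9 to 42.9 and 33.0 to 37.8 CPM. In the control Bak1 stood below Bcl2l1, at 28.1 against 30.9 CPM.

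In UMIs per cell every gene was lower after tubercidin, together with the depth of the libraries. Mcl1 averaged 10.4 UMIs per control cell, 2.38 at 3 h and 1.29 at 6 h, and the median control cell held 10 Mcl1 UMIs (10th to 90th percentile 4 to 17) against 2 (0 to 5) and 1 (0 to 3). Xiap averaged 2.46, 0.306 and 0.256 UMIs per cell, and Bak1 1.45, 0.444 and 0.340. Less RNA per cell and less sequencing per cell cannot be told apart in these files.

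To compare cells at equal depth, each was thinned to 4000 UMIs, which left out 0, 122 and 284 cells. A Mcl1 UMI was then found in 55.8% of control cells (exact binomial limits 53.6 and 58.0%), 50.1% after 3 h (limits 48.0 and 52.2%) and 44.6% after 6 h (limits 42.7 and 46.5%), against 99.6%, 85.2% and 66.4% before thinning. The shares expected over all possible draws were 54.6%, 51.8% and 44.5%. A Xiap UMI was found in 17.7% of thinned control cells, 9.14% at 3 h and 11.2% at 6 h (85.7%, 24.9% and 21.2% before thinning). A Bak1 UMI was found in 9.36%, 12.8% and 14.3% (73.2%, 33.3% and 28.1% before thinning). The order of the libraries in CPM was thus also that of the thinned shares for these 3 genes. It was not for Bid, with 7.58%, 7.54% and 6.47% of thinned cells, whose CPM was highest at 3 h, nor for Bcl2l1, with 11.3%, 11.4% and 13.2%, whose CPM was lowest at 3 h, and the control and 3 h limits overlapped for both. The shares expected over all possible draws did have the CPM order, at 7.24%, 8.22% and 6.20% for Bid and 11.7%, 11.3% and 12.95% for Bcl2l1. The variance of thinned Mcl1 counts over cells divided by their mean was 1.03, 1.14 and 1.02, highest at 3 h, where counting error alone gives 1. No cell type that lacks Mcl1 was present to measure the share that free RNA gives. A set of 10000 barcodes was taken well below the cells, ending at rank 15000 by UMIs and leaving out those just under the cells. Each held 0.0527 (DMSO), 0.0221 (3 h) and 0.0164 (6 h) Mcl1 UMIs on average. They were picked for few UMIs (medians 343, 210 and 138), so these low numbers were built in and do not measure free Mcl1 RNA. Scaled to the barcodes' own total, Mcl1 stood at 151.9 (DMSO), 103.4 (3 h) and 116.0 CPM (6 h). The cells held 200.9, 188.2 and 153.1 CPM.

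Within each library the cells were ordered by total UMIs and divided into 3 groups of equal size. Mcl1 stood in the control at 207, 202 and 197 CPM from the shallowest to the deepest group, at 3 h at 212, 184.5 and 182 CPM, and at 6 h at 143, 145 and 162 CPM. At 3 h the interval of the shallowest group (199.8 to 224.1 CPM) lay above those of the other groups. In the control the shallowest group was also the highest, but its interval overlapped that of the middle group (201.2 to 212.8 and 197.4 to 207.1 CPM). At 6 h the deepest group (155.0 to 169.4 CPM) lay above the others, whose intervals overlapped (132.4 to 154.1 and 137.0 to 154.1 CPM). These orders were not tested. Xiap in the treated libraries stayed below the control in every such group, at 28.2, 22.2 and 23.9 CPM at 3 h and 29.8, 31.1 and 30.1 CPM at 6 h, against 45.3, 46.9 and 49.15 CPM.

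Cells with a high share of mitochondrial UMIs, often taken as a sign of damage, were set beside the other cells of their library. This split was chosen after the values had been seen, and cells of 1 library are not replicates. At 3 h the 124 cells with over 10% mitochondrial UMIs held Mcl1 at 412 CPM (207 UMIs in 94 of the cells, interval 358 to 472), against 184 CPM in the other 2241 cells. In the control the level in 26 such cells was 165 CPM (126 to 211) against 201 CPM, and at 6 h in 50 such cells 216 CPM (143 to 312) against 153 CPM. The 3 h difference, a log2 ratio of 1.16, exceeded that of 73.0% of the 7884 genes, whose median was 0.65, so it was not unusual among genes. Bak1 in the same 3 h cells stood at 17.9 CPM (9 UMIs) against 35.45 CPM, a log2 ratio of -0.95 with 9.83% of genes lower. Xiap in those cells stood at 67.7 CPM (34 UMIs, 46.9 to 94.6) against 23.4 CPM, a log2 ratio of 1.49, above that of 7099 of the 7884 genes. Without these cells the Mcl1 ratio at 3 h was -0.12 and those of Bak1 and Xiap were 0.32 and -0.99. The cells had a median of 3816.5 UMIs against 12207 in the others, and the part of depth in this difference was not tested.

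**Figure D4:**
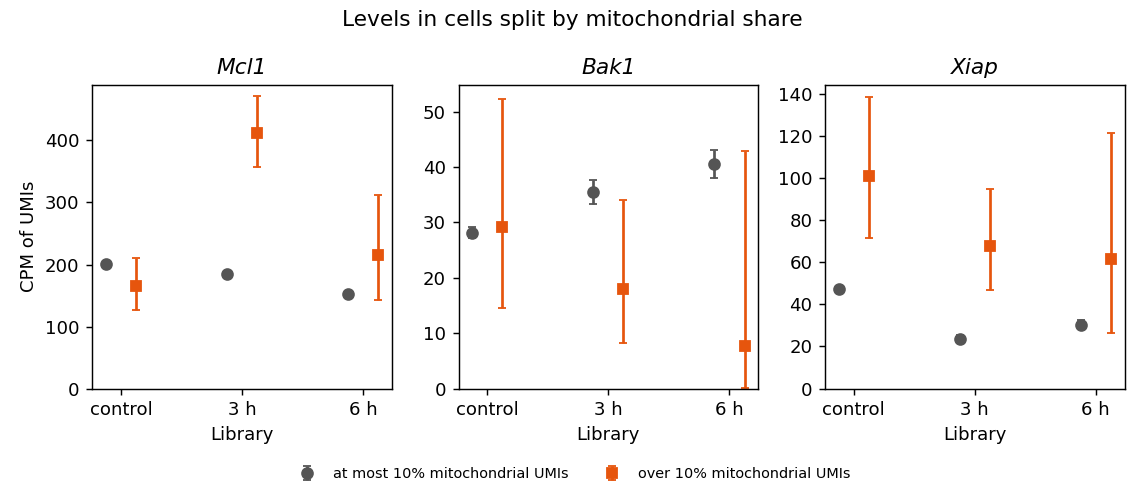
CPM (y axis, a separate scale in each panel) of Mcl1, Bak1 and Xiap in the 3 libraries (x axis), in cells with at most 10% (circles) and over 10% (squares) mitochondrial UMIs, with exact 95% Poisson intervals of the counts as bars. Mcl1 at 3 h stands at 412 against 184 CPM, and the intervals of Bak1 are wide because few UMIs were counted. Xiap is higher in the squares of every library. At 6 h its square rests on 8 UMIs, and the interval of 26.6 to 121.5 CPM includes the 30.2 CPM of the circle.

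The 8 transcripts differ in structure, taken for each from its principal coding transcript in GENCODE M21. The 3' untranslated region of Xiap is 4675 bases long and holds 16 copies of ATTTA, the core of AU-rich elements that can mark an mRNA for decay, and 1.73% of the tested genes with such a transcript held as many. That of Mcl1 is 2356 bases long with 8 copies, that of Bcl2l11 4221 bases with 6, that of Bcl2l2 2704 bases with 4, and that of Bcl2l1 1476 bases with 1. Bak1, Bid and Bad had 0 copies. Over 7679 tested genes the median log2 ratio at 3 h was -0.10 with 0 copies, -0.30 with 1 to 3, -0.41 with 4 to 7 and -0.41 with 8 or more, and at 6 h 0.01, -0.16, -0.22 and -0.23. The length of the region rises with the copies, from a median of 325 bases to 3891 bases, so copies and length were not separated. Xiap, at -0.95 and -0.63, lay below the lower quartiles of its class (-0.69 and -0.54). Mcl1 lay above the upper quartile of the same class at 3 h (-0.09 against -0.17) and between the quartiles at 6 h (-0.39). Bcl2l11, at 0.08 and 0.32, lay above the upper quartiles of its class (-0.14 and 0.07). A link between the copies and the ratios of the 8 genes was not tested. Mcl1 is also compact, spanning 4389 bases with 3 exons, and 8.23% of these genes span less, whereas Xiap spans 49978 bases and Bcl2l1 51061.

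A wider set of 39 cell death genes was counted in the same way, of which 34 reached a mean of 1 CPM. At 3 h 0 were higher by 2-fold or more and 5 were lower by as much, beside 1.60% and 6.20% of the 13587 genes at that level. At 6 h 2 were higher and 3 lower, beside 4.56% and 5.11%. Between 6 h and 3 h 1, Apaf1, was higher and 0 were lower, beside 2.69% and 0.243%. The median log2 ratio of the 34 genes was -0.40 at 3 h and -0.22 at 6 h, beside -0.25 and -0.09 for the 13587 genes. The 5 lower genes at 3 h were Bik, Birc2, Mul1, Usp9x and Bnip3, but median-of-ratios factors left 1 of them past 2-fold, Bik, and TMM factors 3, Bik, Mul1 and Bnip3.

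The other pro-survival genes were nearly silent. Bcl2 itself stood at 1.34 CPM with DMSO, 0.937 CPM at 3 h and 0.972 CPM at 6 h, with ratios within counting error, and Bcl2a1a, Bcl2a1b, Bcl2a1d and Bcl2l10 lay under a mean of 1 CPM. Among the effectors, Bax was counted at 468, 475 and 525 CPM, with log2 ratios of 0.02 (-0.01 to 0.05) and 0.17 (0.14 to 0.19), and Bok, a less studied effector, at 13.3, 6.92 and 9.68 CPM. Of the 5 further BH3-only genes 1, Bik, was past 2-fold, at 2.59 CPM with DMSO (272 UMIs), 0.134 CPM at 3 h (4 UMIs) and 0.608 CPM at 6 h (15 UMIs). The log2 ratio of CPM + 1 for Bik, -1.66 at 3 h, is shrunk by the added 1, and the interval of the plain ratio was -6.16 to -2.90. Bbc3 (PUMA) and Pmaip1 (NOXA) stood at 18.3, 20.7 and 22.2 CPM and at 1.60, 1.67 and 2.11 CPM. Their log2 ratios at 6 h were 0.26 (0.14 to 0.41) and 0.26, the latter with an interval that included 0 (-0.08 to 0.85).

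Among the inhibitor of apoptosis genes and their antagonists, 1 of 6 was past 2-fold at each time, Birc2 (cIAP1), at 23.0 CPM with DMSO, 10.5 CPM at 3 h and 9.68 CPM at 6 h. Its log2 ratios were -1.06 (-1.31 to -0.96) and -1.17 (-1.44 to -1.05). Median-of-ratios and TMM factors gave -0.84 and -0.89 at 3 h, so its place past 2-fold at that time rested on the scaling. Birc5 (survivin), which also serves in mitosis, was at 278, 290 and 264 CPM, and Diablo, which frees caspases from XIAP, at 46.8, 54.8 and 54.2 CPM. Birc6 was at 223 CPM with DMSO, 151 CPM at 3 h and 229 CPM at 6 h, and Htra2 had the lowest ratio between 6 h and 3 h, -0.48.

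Apaf1, the scaffold of the apoptosome, had the highest 6 h ratio among the 34, and Tnfrsf10b the highest 3 h ratio. In UMIs per cell Apaf1 was below the control, at -1.70 and -0.78. Apaf1 stood at 19.1 CPM with DMSO, 23.0 CPM at 3 h and 67.1 CPM at 6 h, log2 ratios of 0.26 (0.14 to 0.40) and 1.76 (1.72 to 1.91). Within the list of 8 apoptosome and caspase genes, the lowest ratios were those of Casp8, the initiator caspase of the death receptors. It was at 4.25, 2.04 and 1.78 CPM, with log2 ratios of -0.79 (-1.47 to -0.67) and -0.92 (-1.74 to -0.81). Cycs, which encodes cytochrome c, was at 236, 262 and 240 CPM. In the death receptor arm Tnfrsf10b, the receptor of TRAIL, stood at 10.9 CPM with DMSO, 18.2 CPM at 3 h and 26.6 CPM at 6 h, log2 ratios of 0.68 (0.58 to 0.88) and 1.21 (1.14 to 1.42). The lowest ratios in this list were those of Ripk1 at 3 h, -0.89, and of Fadd at 6 h, -0.77.

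A list of 5 ubiquitin ligases and deubiquitinases was drawn up for the turnover of MCL1 protein. Mul1, a mitochondrial ubiquitin ligase, had the lowest ratios, at 16.8, 6.69 and 6.04 CPM with log2 ratios of -1.21 (-1.55 to -1.12) and -1.34 (-1.73 to -1.24). Usp9x, a deubiquitinase that protects MCL1, was at 217 CPM with DMSO, 107 CPM at 3 h and 153 CPM at 6 h. Its log2 ratio at 3 h, -1.01 (-1.07 to -0.96), lay at the edge of 2-fold. Huwe1, a ligase for MCL1, was at 271, 191 and 273 CPM, and Usp13 at 7.33, 6.06 and 8.75 CPM. Of the related mitophagy receptors, Bnip3 was at 12.7, 4.95 and 6.81 CPM and Bnip3l at 135, 70.7 and 92.4 CPM.

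**Figure D5:**
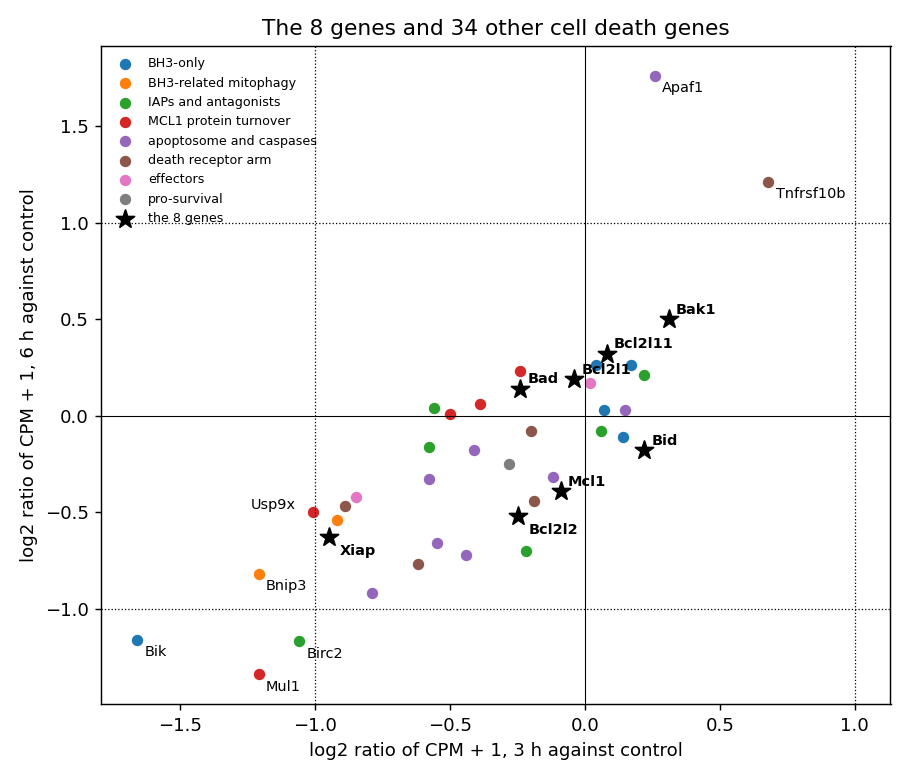
Log2 ratio of CPM + 1 at 3 h (x axis) against that at 6 h (y axis), both against the same control library, for the 8 genes (stars) and 34 other cell death genes (circles, coloured by list); dotted lines mark 2-fold. The stars lie inside the dotted lines, and Apaf1 and Tnfrsf10b stand apart above.

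The genes whose ratios were most like those of Mcl1, by distance in the 3 h and 6 h log2 ratios among 7603 named genes whose mean reached 10 CPM, were Zkscan17, Dhrs1, Champ1, Setd6 and Ctu2. Their distances were 0.016 to 0.019, over 3 libraries that share a control. Zkscan17 had ratios of -0.10 and -0.37, and Dhrs1 of -0.08 and -0.39. Within a distance of 0.1 of Mcl1 lay 100 genes.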

How the data were processed

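The authors deposited raw UMI counts per gene and barcode for 3 libraries, which the file headers credit to Cell Ranger 7.1.0, on the build mm10 per the submitters' processing notes. The annotation release, the strand setting and whether intronic reads were counted are not given in the sources used here. A barcode was called a cell when its UMIs reached 1/10 of the 99th percentile among the 3000 deepest barcodes, with 500 or more genes and no more than 20% mitochondrial UMIs. Doublets were kept and cells were not clustered. UMIs were summed over cells, scaled to CPM and compared as log2 ratios of CPM + 1. Counting intervals are exact conditional binomial for ratios, Poisson for levels and Clopper-Pearson for shares, and 3 counts, the floor taken for a gene at 0, are 0.0286, 0.100 and 0.122 CPM in the control, 3 h and 6 h. Called cells held 104892739, 29892000 and 24681924 UMIs. Genes past 2-fold were counted among those with a mean of at least 10 CPM (1 CPM for lists).

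The genes named were the 8 members, the highest and lowest of each list at 3 h and 6 h, Bcl2, Bax, Bbc3, Pmaip1, Birc5 and Apaf1, and the 5 genes nearest to Mcl1. The overlapping genes, Cycs, Usp9x, Huwe1, Birc6, Htra2 and the silent pro-survival genes were added after their values were seen. Members and lists were chosen with earlier results of these data known. The overlaps, transcript features, motifs and the mitochondrial split were also chosen then. Alternatives were other UMI minimums, a mitochondrial limit of 10%, leaving out cells above 2 times the median UMIs, free RNA subtraction, equal weight for each cell, an added 0.1 CPM, other scalings, other filters on low levels and other thinning depths. The scripts were tested on simulated data with 200 of 7884 genes set 3-fold apart. They found 100% of those in each comparison, and the true ratio lay inside 95.4% (3 h), 95.5% (6 h) and 94.9% (6 h against 3 h) of intervals. The simulated counts held counting error only, which the intervals assume. This checks the computation and cannot show how the intervals fare with the spread between cells or cultures. Computation used Python 3.11.15, scipy 1.17.1, and edgeR 4.0.16 in R 4.3.3 for TMM factors. Gene positions came from GENCODE M21 (GRCm38) and promoter sequences from RefSeq (GRCm38.p6).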

Additional observations from a re-analysis of the deposited data

Results flagged for a closer look

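Bid and Bad lay on opposite sides of the control at 3 h and 6 h beyond counting error, Bid with log2 ratios of 0.22 and -0.18 and Bad with -0.24 and 0.14. Birc5, at 0.06 and -0.08, and Usp13, at -0.24 and 0.23, did the same. These differences between the times were not tested, since each condition had 1 library. Under median-of-ratios factors Bad and Usp13 were near 0 at 3 h, at -0.01 and -0.03, while Bid and Birc5 stayed above 0 at that time, at 0.45 and 0.30. In UMIs per cell all 4 genes were below the control at both times.

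Barcodes outside the called cells held 12.6% of the UMIs of the 8 genes after 3 h and 14.6% after 6 h of tubercidin, and 8.50% with DMSO. Over all genes the shares were 15.5%, 15.9% and 9.31%, and the pooled value of the 8 genes is set mostly by Mcl1. In the control Bcl2l1, Bcl2l2, Bcl2l11 and Xiap lay above the share of all genes, at 10.5%, 15.2%, 9.33% and 10.2%, of which Bcl2l11 did so within counting error, and after 6 h Bak1 did so at 16.6%, also within it. For Mcl1 alone the shares were 12.1%, 14.5% and 7.87%.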

How the results depend on the processing

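No paired analysis was possible because each condition had 1 library, and leaving out a replicate was not possible for the same reason. Median-of-ratios and TMM factors turned the Mcl1 log2 ratio at 3 h to 0.15 and 0.10, moved that between 6 h and 3 h to -0.52 and -0.52, and turned that of Bak1 between the times to -0.03 and -0.02. UMIs per cell, which carry the depth of the libraries, put 8 genes past 2-fold at 3 h and 8 at 6 h. Mcl1 stood at -2.12, -2.99 and -0.87 in the comparisons at 3 h, at 6 h and between them. Of the 7884 genes, 7803 were past 2-fold below the control at 3 h on this scale and 7825 at 6 h. The counts of 8 thus lie near this background and do not set these genes apart. On that scale Bak1 and Bid turned to -1.67 and -1.74 at 3 h. Bcl2l1, Bcl2l11, Bak1 and Bad turned to -2.35, -2.18, -2.04 and -2.37 at 6 h, and to -0.33, -0.30, -0.37 and -0.17 between the times, with Xiap at -0.24. Doubling the UMI minimum put 1 gene, Xiap, past 2-fold at 3 h. Subtracting 10% free RNA moved Mcl1 at 3 h to -0.04, and equal weight for each cell to -0.01, with -0.40 between the times. The cause of these moves was not tested. Thinning to 2000 UMIs gave Mcl1 shares of 34.02%, 30.78% and 26.83% in the control, 3 h and 6 h, and no thinning 99.56%, 85.24% and 66.44%, in the same order of libraries. Of the recomputed values, 291 were labelled the same, 71 moved and 15 reversed. These labels do not mark every change of sign near 0. Bcl2l1 at 3 h, at -0.04, was labelled the same at 0.06 with 10% free RNA subtracted and at 0.02 with equal weight for each cell. It was labelled moved at 0.19 under median-of-ratios and at 0.14 under TMM factors. The share of all genes past 2-fold below the control, 5.54% at 3 h and 4.41% at 6 h, was 3.06% and 2.42% when the mean had to reach 50 CPM and 3.35% and 2.77% with no filter, and the share above it at 6 h was 1.35% at 50 CPM in place of 2.33%. At 3 h TMM factors gave 126 genes higher and 202 lower. Alternatives chosen after seeing the data were Bax in the denominator, which gave pro-survival shares of 29.55%, 27.78% and 23.08%, and other scalings of the wider lists. Of the 34 listed genes, 1 (median-of-ratios), 3 (TMM) and 34 (UMIs per cell) were past 2-fold below the control at 3 h in place of 5, and in UMIs per cell 33 were at 6 h in place of 3, with 0 above it in place of 2. Few UMIs limit Bcl2l2 most, with 30 at 6 h.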
